A study of Mus musculus with 32 samples.

Results

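Progenitor cells from the mouse intestinal crypt that carried both changes of the study, a high-fat diet and loss of Cpt1a, were compared with progenitors that carried neither, and each was set beside the groups with a single change. The comparison rests on the 4 libraries whose columns end in HF.KO.prog and the 4 that end in HFC.WT.prog, 8 of the 32 libraries of the series, with 12460 expressed genes tested. HF.KO mice were Cpt1a fl/fl with Villin-CreER and Lgr5-GFP-IRES-CreER and received the high-fat diet. HF.WT mice had the same drivers without the floxed allele and received the high-fat diet, HFC.KO mice were Cpt1a fl/fl with the drivers on the high-fat control diet, and HFC.WT mice had the drivers alone on that control diet. All were C57BL6 and the labels used here give no age. Both Cre drivers and the Lgr5 reporter were thus present in every group, the controls included. Villin-CreER is an inducible recombinase of the whole intestinal epithelium. Cells were sorted as Lgr5-eGFP low, EpCAM-positive and CD24 low or negative, without CD31, Ter119, CD45 or 7AAD staining. The labels name 2 female and 2 male libraries per group, but the table's columns carry neither sex nor a replicate number, so the libraries of a group are called a to d in column order. The labels do not say whether libraries came from separate animals, and the p-values measure the spread between these libraries.

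Cpt1a sits on the outer mitochondrial membrane and joins long-chain fatty acids to carnitine, the entry step of mitochondrial beta-oxidation. Fatty acids that enter the cell also act as ligands of the PPAR nuclear receptors, which in intestine and liver switch on genes of fatty acid binding, mitochondrial and peroxisomal oxidation, and ketone body synthesis. In the intestinal crypt, Lgr5-low progenitors are the immediate offspring of the Lgr5-high stem cells.

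Cpt1a itself was checked first. Its level was 26.5, 26.7, 20.9 and 25.96 CPM (counts scaled to the library's TMM-adjusted total of 1e6) in the HF.KO libraries a to d and 18.00 to 29.2 CPM in HFC.KO progenitors, against 230.3 to 327 CPM in HF.WT and 202, 159, 197 and 249 CPM in HFC.WT progenitors. The libraries of deficient and wild-type progenitors did not overlap, and the log2 fold change of HF.KO over HFC.WT was -3.01 ± 0.17 (SE, edgeR's quasi-likelihood test, n = 4 and 4, adjusted p = 2.45e-08). The muscle and brain isoforms Cpt1b and Cpt1c did not pass the filter on low counts and reached at most 0.981 and 0.663 CPM. In the progenitor libraries Epcam held 2015 to 2606 CPM and Lgr5, the gene of the sort, 11.4 to 81.2 CPM. No library exceeded 0.163 CPM of Ptprc, a white blood cell gene, or 0.922 CPM of Pecam1, an endothelial one. The progenitor libraries held 3307711 to 7337425 estimated counts.

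In HF.KO progenitors, genes of mitochondrial and peroxisomal fatty acid oxidation rose over HFC.WT, with Fabp1 for fatty acid binding, while Oxct1 for ketone use, Scd2 for desaturation and some MHC class I genes fell. edgeR called 294 of 12460 genes (2.36%), 166 higher (1.33%) and 128 lower (1.03%), with a median log2 fold change over all genes of 0.00455. Of 40 tested PPAR target genes, 28 rose and 1, Cpt1a, fell, with a list median of 1.46. Of 25 genes of mitochondrial fatty acid oxidation 14 rose and 2 fell (median 0.57), and of 23 genes of peroxisomal oxidation 10 rose (median 0.31). Both lists share members with the PPAR list. The lists were chosen with earlier results of these data known, so their shares are descriptions and no independent test. The 4 HF.KO libraries did not overlap the 4 HFC.WT libraries for 1168 genes (9.37%), 606 of them higher (4.86%) and 562 lower (4.51%).

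**Figure D1:**
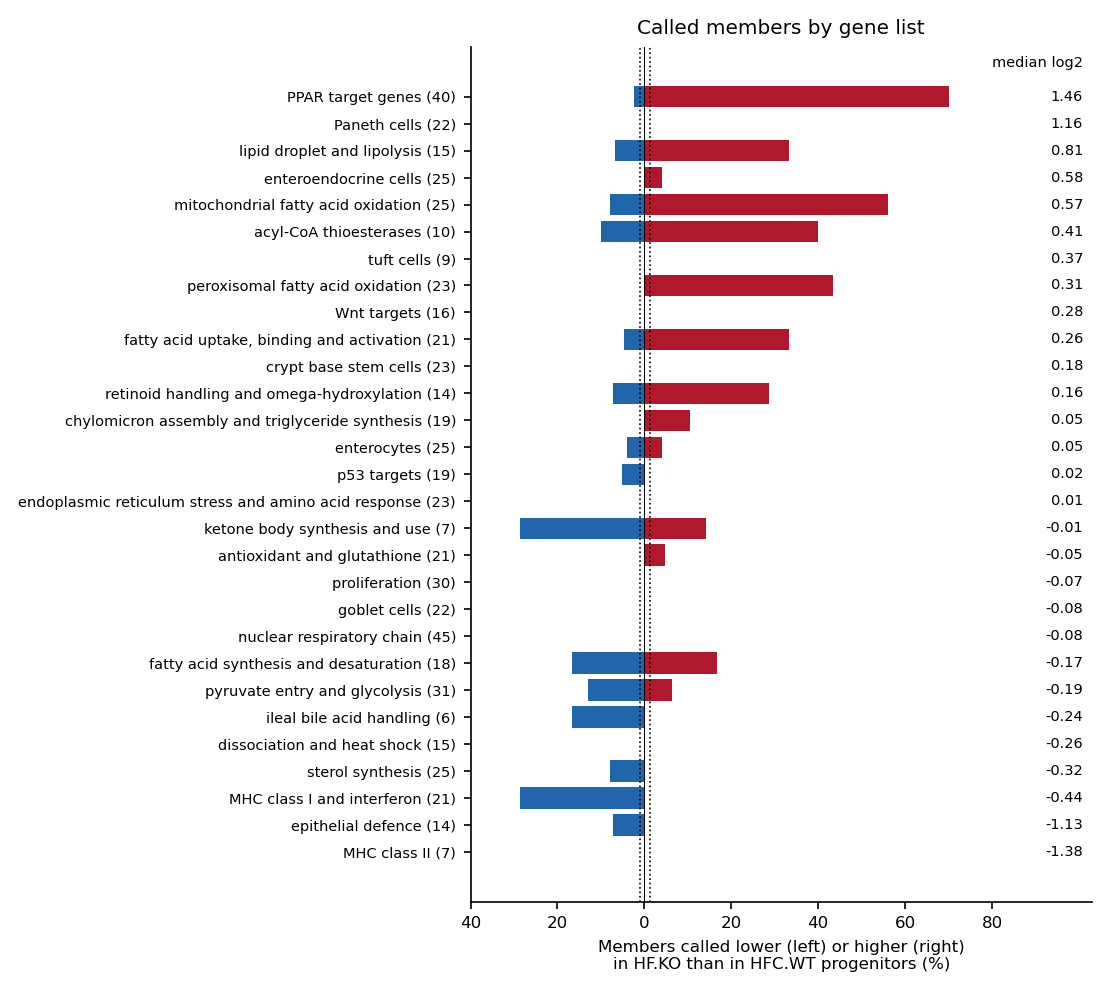
Share of each gene list's tested members that passed the test (edgeR adjusted p under 0.05) as lower, left, or higher, right, in HF.KO than in HFC.WT progenitors, with the number tested in parentheses and the list's median log2 fold change at the right edge; dotted lines mark 1.33% higher and 1.03% lower over all genes. PPAR targets and mitochondrial oxidation have the longest bars to the right. Paneth cell and MHC class II genes have medians far from 0 and no called member. The lists were chosen with earlier results of these data known.

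To ask which genes went beyond either factor alone, HF.KO progenitors were compared with each single-change group. The diet step is HF.KO minus HFC.KO and the Cpt1a step is HF.KO minus HF.WT, and a gene counted when both steps passed in the same direction (the larger of their p-values, adjusted over all 12460 genes). By this test 23 genes passed (0.185%), 22 higher (0.177%) and 1 lower (0.00803%). The diet step called 39 genes (0.313%), 30 higher (0.241%) and 9 lower (0.0722%), and the Cpt1a step 88 (0.706%), 59 higher (0.474%) and 29 lower (0.233%). The single changes from HFC.WT gave 11 genes for diet alone (HF.WT minus HFC.WT, 0.0883%), all higher, with 384 lower at an unadjusted p under 0.05, and 10 called lower by DESeq2. Loss alone (HFC.KO minus HFC.WT) gave 32 (0.257%), 28 higher (0.225%) and 4 lower (0.0321%). Of the 40 tested PPAR targets, diet alone called 8 higher (median 0.62) and loss alone 17 higher and 1 lower (median 0.71). Of the 25 genes of mitochondrial oxidation, diet alone called 5 higher (median 0.32) and loss alone 8 higher and 1 lower (median 0.26). These comparisons share libraries, so their values are given side by side and not correlated. In all 23 genes the 4 HF.KO libraries lay outside the range of the other 12 progenitor libraries, which held for 166 of the 12460 tested genes. Choosing the 23 by both steps from these same libraries favours such a separation, so it is no added evidence. The count was 5 without HFC.KO library d, 13 without HF.KO library b or c, 15 without HF.KO library a, and 54 by DESeq2, 38 higher and 16 lower, which included all 23. Acaa1b, Hadhb, Me1, Retsat and Oxct1 passed in each of the 16 fits that leave out a progenitor library and under each of the other alternatives.

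**Figure D2:**
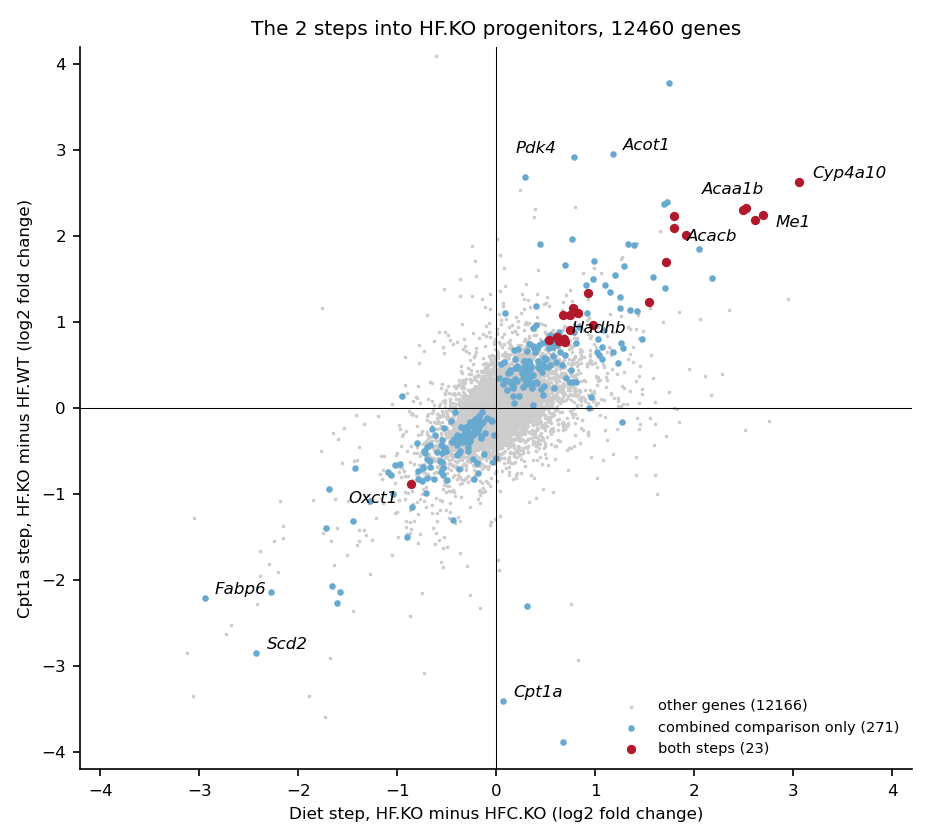
Log2 fold change of the diet step (x) against the Cpt1a step (y) for the tested genes, with the 23 that passed both steps in red, the 271 others called in the combined comparison in blue and the rest in grey. Both axes contain the HF.KO libraries, so a diagonal cloud arises without any effect. 14 genes with a step beyond 4.2 in size, none of them called in the combined comparison, lie outside the axes.

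Of the 23, 8 belonged to the list of mitochondrial fatty acid oxidation and 13 to that of PPAR targets, which share members. Both lists were drawn up with earlier results of these data known. Hadhb encodes the beta subunit of the trifunctional protein, which carries out the last steps of each beta-oxidation cycle (ENSMUSG00000059447; GRCm38 chromosome 5, 30155248 to 30184593, plus strand). It held 1187, 1098, 1132 and 1014 CPM in the HF.KO libraries, 479, 423, 576 and 609.7 CPM in HF.WT, 729.7, 739.9, 663 and 636 CPM in HFC.KO and 410.3, 404, 418 and 439 CPM in HFC.WT progenitors. Every HF.KO library was above every other progenitor library, and the HFC.KO libraries were above all HFC.WT ones. The combined log2 fold change was 1.41 ± 0.10 (SE, adjusted p = 1.01e-07), with 0.68 ± 0.10 for the diet step (adjusted p = 0.00374) and 1.09 ± 0.10 for the Cpt1a step (adjusted p = 1.23e-05). Diet alone gave 0.32 ± 0.10 (adjusted p = 0.445) and loss alone 0.73 ± 0.10 (adjusted p = 0.000912).

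Hadha, the alpha subunit of the same protein, lies head to head with Hadhb, and the 2 genes start 273 bp apart on opposite strands by RefSeq. The 250 bases before the RefSeq start of Hadhb are shown because the 2 genes moved together (GRCm38.p6, chr5:30155003-30155252, plus strand). Capitals mark the bases that also lie within the 250 bases before the start of Hadha, read there on the other strand.
Hadhb: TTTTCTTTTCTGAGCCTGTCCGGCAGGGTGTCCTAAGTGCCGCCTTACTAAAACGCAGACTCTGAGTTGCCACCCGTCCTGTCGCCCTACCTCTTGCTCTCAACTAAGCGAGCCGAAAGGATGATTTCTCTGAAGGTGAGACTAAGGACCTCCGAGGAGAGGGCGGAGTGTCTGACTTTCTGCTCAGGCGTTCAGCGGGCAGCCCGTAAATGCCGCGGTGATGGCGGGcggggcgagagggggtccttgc
Hadha held 201, 206, 219 and 210.3 CPM in HF.KO, 108 to 146 CPM in HF.WT, 129.8 to 160.3 CPM in HFC.KO and 83.8, 81.04, 83.3 and 87.9 CPM in HFC.WT progenitors, again with no overlap between HF.KO and any other group. Its combined log2 fold change was 1.32 ± 0.09 (adjusted p = 1.01e-07), with steps of 0.54 for diet (adjusted p = 0.0106) and 0.79 for Cpt1a (adjusted p = 0.000152). By limma on the deposited log2 values Hadha did not pass both steps (adjusted p = 0.194).

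Other members of the mitochondrial list also passed both steps. Slc25a20, the carrier that takes acylcarnitines across the inner membrane, held 238, 224, 227 and 213 CPM in HF.KO, 83.6, 80.7, 108 and 133 CPM in HF.WT, 144, 142, 112 and 130.3 CPM in HFC.KO and 51.7, 54.6, 61.5 and 62.2 CPM in HFC.WT libraries. The level in HF.KO was 3.93-fold that in HFC.WT (1.97 ± 0.13, adjusted p = 8.67e-08), and both single changes passed as well, diet alone at 0.82 (adjusted p = 0.0188) and loss alone at 1.20 (adjusted p = 0.000211). Without HFC.WT library a or c, no gene passed for diet alone, this one included. Acadl, which encodes the dehydrogenase for long-chain acyl-CoA, averaged 367 ± 33.3 CPM in HF.KO and 94.6 ± 7.56 CPM in HFC.WT progenitors (SD, n = 4 each; 1.96 ± 0.14, adjusted p = 1.2e-07), with 171 ± 31.02 CPM in HF.WT and 207 ± 41.7 CPM in HFC.KO. The very-long-chain enzyme gene Acadvl (1.32 ± 0.11), the thiolase gene Acaa2 (1.51 ± 0.11), the enoyl-CoA isomerase gene Eci2 (1.65 ± 0.13) and Hsdl2 (2.27 ± 0.16) completed the 8 members of the mitochondrial list that went beyond either factor. Each of these 4 also had all HF.KO libraries above the other 12. Eci2 and Hsdl2 were counted in the mitochondrial list and not in the peroxisomal one, and where their proteins lie was not looked at.

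Other members of that list rose in the combined comparison without passing both steps. Cpt2, which returns the acyl group from carnitine to coenzyme A inside the mitochondrion, held 334 to 404 CPM in HF.KO and 131 to 197 CPM in HFC.WT libraries (1.05 ± 0.15, adjusted p = 0.00058), with a Cpt1a step of 0.66 (adjusted p = 0.0573) and a diet step of 0.31 (adjusted p = 0.513). The electron transfer flavoprotein genes, which pass electrons from the acyl-CoA dehydrogenases to the respiratory chain, rose by 0.77 ± 0.12 for Etfb, 0.68 ± 0.12 for Etfdh and 0.54 ± 0.11 for Etfa. Besides Cpt1a the member that fell was the short-chain hydratase gene Echs1 (-0.40 ± 0.10, adjusted p = 0.0453), a call lost in 11 of the 16 fits that leave out a library, with an adjusted p of up to 0.17. Of 45 nuclear-encoded respiratory chain genes none passed by edgeR, DESeq2 or limma (median -0.08), and 3 were lower at an unadjusted p under 0.05.

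The list of peroxisomal oxidation, the chain-shortening of very long fatty acids, had 2 members among the 23. Acaa1b, a peroxisomal thiolase (GRCm38 chromosome 9, 119148023 to 119157093, minus strand), held 29.5, 29.4, 27.3 and 25.6 CPM in HF.KO, 5.06, 2.77, 6.36 and 8.84 CPM in HF.WT, 6.59, 6.64, 2.97 and 3.45 CPM in HFC.KO and 1.51, 0.682, 0.615 and 0.8704 CPM in HFC.WT libraries. The 4 groups' extremes put HF.KO above all others and HFC.WT below all others, with the single-change groups overlapping each other. Its combined log2 fold change was 4.83 ± 0.36 (adjusted p = 1.32e-07), with nearly equal steps of 2.49 ± 0.28 for diet (adjusted p = 0.000322) and 2.30 ± 0.28 for Cpt1a (adjusted p = 0.000234). Its close relative Acaa1a held 17031 estimated counts over the 16 progenitor libraries, against 919 for Acaa1b. Reads may be divided between these relatives, so the Acaa1b values are less certain. Ech1, a dienoyl-CoA isomerase, rose by 1.18 ± 0.10 (adjusted p = 6.72e-07). Among the rest of the list, Hsd17b4 (0.74 ± 0.10), Cat, the peroxide-clearing catalase (0.80 ± 0.11), and Crot, which makes carnitine esters for export (0.96 ± 0.13), rose in the combined comparison without passing both steps.

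**Figure D3:**
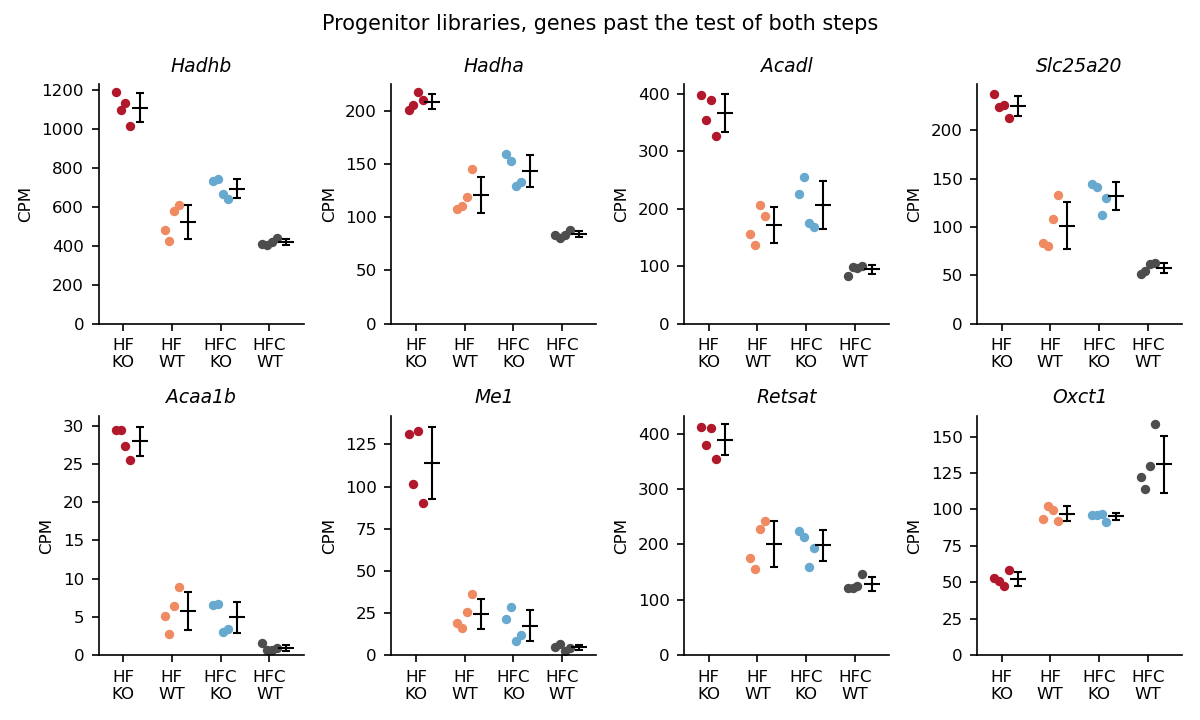
CPM of 8 genes that passed both steps, with a point for each library, a to d from left to right within a group, and the group's mean with SD (n = 4) to its right; the y axes start at 0. In each panel HF.KO (left) stands apart from HF.WT, HFC.KO and HFC.WT, highest for 7 genes and lowest for Oxct1, whose HF.KO mean was 52.4 CPM against 131 CPM in HFC.WT.

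Genes of lipid release, omega-oxidation, retinol metabolism and NADPH supply were also among the 23. Me1, the cytosolic malic enzyme that makes NADPH, held 131, 102, 133 and 90.5 CPM in HF.KO, 18.8, 16.3, 25.6 and 36.2 CPM in HF.WT, 21.5, 28.4, 8.26 and 11.99 CPM in HFC.KO and 4.87, 6.31, 2.46 and 4.35 CPM in HFC.WT libraries. HF.KO was 24.2-fold above HFC.WT (4.59 ± 0.40, adjusted p = 1.08e-05), and neither diet alone (2.34, adjusted p = 0.0632) nor loss alone (1.90, adjusted p = 0.107) passed. In HFC.KO progenitors, libraries a and b held more Me1 than c and d, and in HF.WT progenitors the opposite held. Cyp4a10, a fatty acid omega-hydroxylase, had the largest combined change of the 23, 85.1 ± 16.9 CPM in HF.KO against 0.905 ± 0.5098 CPM in HFC.WT (SD, n = 4 each; 6.50 ± 0.64, adjusted p = 4.42e-05), with 5.53 to 22.8 CPM in HF.WT and 3.14 to 15.6 CPM in HFC.KO libraries. Mgll, the monoglyceride lipase, stood at 46.3 ± 6.01 CPM in HF.KO and 3.25 ± 1.19 CPM in HFC.WT (3.87 ± 0.40, adjusted p = 3.38e-05). Retsat, a retinol saturase, held 413, 379, 410.3 and 355 CPM in HF.KO, 155 to 243 CPM in HF.WT, 159 to 225 CPM in HFC.KO and 122, 121, 125 and 147 CPM in HFC.WT libraries (1.60 ± 0.13, adjusted p = 5.52e-07).

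The other higher genes among the 23 had lower counts or roles outside fat oxidation. Acacb encodes the mitochondrial acetyl-CoA carboxylase, whose product malonyl-CoA inhibits Cpt1 enzymes, and held 11.6, 13.7, 10.5 and 16.02 CPM in HF.KO, 1.77 to 5.52 CPM in HF.WT, 2.300 to 5.14 CPM in HFC.KO and 0 to 0.682 CPM in HFC.WT libraries (4.77 ± 0.44, adjusted p = 1.72e-06). Slc22a3, an organic cation transporter, held 20.8, 20.7, 18.9 and 18.3 CPM in HF.KO and 0.672 to 3.997 CPM in HFC.WT libraries (3.15 ± 0.33). Ncald, a neuronal calcium sensor family gene, rose by 1.07 ± 0.12 (adjusted p = 1.4e-05) although diet alone gave 0.26 and loss alone 0.38, neither of which passed (adjusted p = 0.676 and 0.401). Vwa8 (1.49 ± 0.14), Prex1, a Rac exchange factor (2.57 ± 0.37), Zfp667 (2.27 ± 0.27) and Adprhl1 (4.57 ± 0.53) rose too. Gm26588, antisense to Mgll, held 4.91, 4.73, 5.42 and 3.45 CPM in HF.KO and 0, 0, 0.615 and 0.218 CPM in HFC.WT libraries. Its exons share 167 bases with those of Mgll, and exons of 12 of the 23 genes overlap an exon on the other strand. Whether the authors counted by strand is not given in the sources used here, so reads in such stretches cannot be told apart. Acacb, Acaa1b, Slc22a3, Prex1, Zfp667, Adprhl1 and Gm26588 averaged under 3 in log2 CPM, and the calls of Prex1, Zfp667 and Gm26588 were lost in 12, 11 and 10 of the 16 fits that leave out a library, with an adjusted p of up to 0.288, 0.316 and 0.189. Among the other genes that passed both steps, Mgll lost this call in 8 of those fits, Cyp4a10 and Adprhl1 in 7 each, and the remaining 12 in 1 to 5. By limma Hadha, Acacb, Vwa8, Adprhl1, Prex1 and Zfp667 did not pass both steps (adjusted p = 0.194, 0.391, 0.122, 0.0897, 0.405 and 0.16).

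Oxct1 was the one gene that fell beyond either factor. It encodes the transferase that activates ketone bodies for oxidation (ENSMUSG00000022186; GRCm38 chromosome 15, 4026383 to 4155344, plus strand). The HF.KO libraries held 52.8, 50.7, 47.5 and 58.6 CPM, the HF.WT libraries 93.2, 103, 99.8 and 91.9 CPM, the HFC.KO libraries 96.5, 95.9, 96.8 and 91.7 CPM and the HFC.WT libraries 122, 114, 130.1 and 159 CPM. All HF.KO libraries were below all others, all HFC.WT libraries were above all others, and the single-change groups overlapped. The combined log2 fold change was -1.32 ± 0.10 (adjusted p = 1.01e-07), with steps of -0.86 ± 0.09 for diet (adjusted p = 0.000322) and -0.89 ± 0.09 for Cpt1a (adjusted p = 9.33e-05), each about as large as the other. Diet alone gave -0.43 (adjusted p = 0.113) and loss alone -0.46 (adjusted p = 0.0425). Oxct1 also had the smallest interaction p of the 23 (-0.43 ± 0.13, unadjusted p = 0.00444), which did not pass over all genes (adjusted p = 0.969). Choosing the 23 by their HF.KO level favours small values of this unadjusted p. Of the 7 tested genes of ketone body synthesis and use 2 fell and 1 rose (median -0.01), and the other that fell was Aacs, the cytosolic acetoacetyl-CoA synthetase (-0.52 ± 0.12, adjusted p = 0.0261), whose call was lost in 5 of the 16 fits that leave out a library, with an adjusted p of up to 0.102.

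Whether diet and loss added up or multiplied was looked at through the interaction and through a sum and a product expected for HF.KO. By edgeR no gene of 12460 passed the interaction test (561 at an unadjusted p under 0.05, smallest adjusted p = 0.969), and DESeq2 and limma also gave 0. Among the 23 genes the interaction log2 estimates ran from -0.88 to 0.87, 15 were positive, and 3 had an unadjusted p under 0.05. The 23 were chosen for an HF.KO level beyond both single-change groups, and the interaction uses the same HF.KO values. That choice favours estimates in the direction of the change and small unadjusted p-values. On the linear scale, the HF.KO mean of all 22 higher genes exceeded the sum of the single changes (HF.WT plus HFC.KO minus HFC.WT). For Hadhb the HF.KO mean was 1108 CPM against a sum of 796 CPM and a product of single fold changes of 865 CPM. For Acadl it was 367 CPM against 283 and 374 CPM. The HF.KO mean fell short of the product for 7 of the 22, among them Cyp4a10 with 85.1 CPM against 156 CPM. These expectations are descriptions and carry no test, and choosing genes for a high HF.KO level favours values above the sum.

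**Figure D4:**
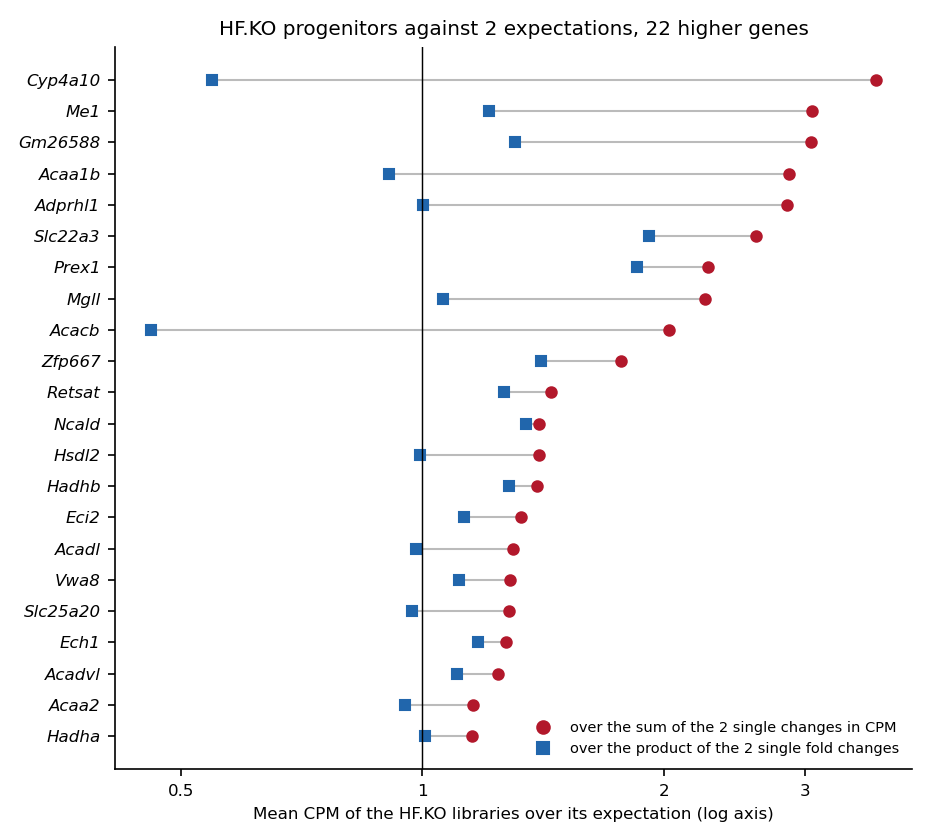
Mean CPM of the HF.KO libraries over the values expected from the single-change groups, on a log axis, for the 22 genes higher beyond either factor: circles, over the sum of the single changes in CPM, squares, over the product of the single fold changes. All 22 circles lie right of 1, and 7 squares lie left of it.

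Fabp1, a fatty acid binding protein of the absorptive epithelium, rose in the combined comparison and passed neither step. It held 3232, 2555, 4071 and 2539.5 CPM in HF.KO, 732, 445, 1104 and 1172 CPM in HF.WT, 1198, 1053, 207 and 529.9 CPM in HFC.KO and 46.4, 120.3, 59.96 and 153 CPM in HFC.WT libraries. Every HF.KO library was above all others, 32.5-fold over HFC.WT (5.02 ± 0.61, adjusted p = 0.000533), while HFC.KO spread from 207 to 1198 CPM and neither step passed (adjusted p = 0.189 for diet and 0.191 for Cpt1a). The 250 bases before the RefSeq start of Fabp1 are shown for the PPAR-type repeat in them (GRCm38.p6, chr6:71199629-71199878, plus strand). Capitals mark a match, on the minus strand at bases -67 to -55 from the start, to AGGNCANAGGNCA, a direct repeat of AGGNCA with a spacer base, the form bound by PPAR with its partner RXR.
Fabp1: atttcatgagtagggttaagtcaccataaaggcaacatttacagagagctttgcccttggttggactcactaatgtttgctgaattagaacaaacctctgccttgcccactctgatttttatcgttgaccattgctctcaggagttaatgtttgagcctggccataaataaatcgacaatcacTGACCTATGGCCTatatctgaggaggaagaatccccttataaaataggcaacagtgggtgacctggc
Both strands were searched, over 300 bases from 250 before to 50 after each start. This motif was found in 0.381% of the 32851 windows in the RefSeq table and in none of the 22 windows found for 20 of the 23 genes, which says only that these letters are not in those windows. Fabp2, the intestinal fatty acid binding protein, rose to 559 to 867 CPM in HF.KO, against 179.9 to 294 CPM in HFC.WT libraries (1.55 ± 0.21, adjusted p = 0.00058). Creb3l3, a transcription factor of lipid handling and a PPAR target, stood at 178 ± 30.1 CPM in HF.KO and 13.2 ± 4.33 CPM in HFC.WT (SD, n = 4 each; 3.79 ± 0.42, adjusted p = 0.000202). Of 21 tested genes listed for fatty acid uptake, binding and activation 7 rose and 1 fell by edgeR. DESeq2 called 8 higher and 1 lower, and limma 4 and 1. The risers included Slc22a3, an organic cation transporter gene, and the gene that fell was Fabp6, of the ileal bile acid binding protein.

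A set of genes was high in both deficient groups and passed the Cpt1a step but not the diet step. Acot1, a cytosolic acyl-CoA thioesterase, held 311, 351, 295 and 261 CPM in HF.KO and 159, 129, 130.4 and 121 CPM in HFC.KO libraries, against 17.1, 30.1, 40.3 and 71.3 CPM in HF.WT and 14.6, 10.1, 13.8 and 11.3 CPM in HFC.WT libraries. Both deficient groups were above both wild-type groups, HF.KO above HFC.KO too. Its Cpt1a step of 2.96 ± 0.30 passed (adjusted p = 0.000243) and its diet step of 1.18 ± 0.28 did not (adjusted p = 0.127). Pdk4, the kinase that shuts off pyruvate dehydrogenase, held 98.4, 122, 50.8 and 115 CPM in HF.KO and 48.8, 71.7, 40.6 and 63.7 CPM in HFC.KO, against 2.29, 7.16, 15.4 and 28.3 CPM in HF.WT and 8.74, 2.39, 6.15 and 2.83 CPM in HFC.WT libraries. The deficient libraries were all above the wild-type ones, the 2 deficient groups overlapped, and the Cpt1a step was 2.92 ± 0.54 (adjusted p = 0.0298) against a diet step of 0.78 ± 0.47 (adjusted p = 0.626). Angptl4, a secreted inhibitor of lipoprotein lipase, had 140.3 ± 34.98 CPM in HF.KO and 115 ± 16.1 CPM in HFC.KO, against 22.3 ± 15.8 CPM in HF.WT and 16.4 ± 9.86 CPM in HFC.WT (SD, n = 4 each; Cpt1a step 2.69 ± 0.49, adjusted p = 0.0268). Acot2, Acot4 and the lipid droplet coat gene Plin2 had the same pattern, with Cpt1a steps of 1.91 ± 0.37, 0.96 ± 0.19 and 0.57 ± 0.11 that passed and diet steps of 0.45 ± 0.34, 0.41 ± 0.18 and 0.19 ± 0.10 that did not. That one step passed and the other did not is no test of their difference, which was not tested. Of 10 acyl-CoA thioesterase genes tested 4 rose, with Acot8, the peroxisomal enzyme, as the fourth (0.62 ± 0.15), and 1, Acot9, fell (-0.87 ± 0.21). The calls of Acot8 and Acot9 were lost in 6 and 4 of the 16 fits that leave out a library, with an adjusted p of up to 0.108 and 0.136. Acot1, Acot2 and Acot4, like Acaa1b, Cyp4a10, Scd2 and H2-K1, have near-identical relatives. The authors' counting could have divided reads among such relatives, so these values are less certain.

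Lipid droplet genes gave 5 that rose and 1 that fell of 15 tested (median 0.81). Besides Plin2 and Mgll, Plin5, a droplet coat of oxidising tissues, held 3.57, 1.79, 1.87 and 1.83 CPM in HF.KO and 0 to 0.307 CPM in HFC.WT libraries (adjusted p = 0.00998). G0s2, an inhibitor of the lipase ATGL, held 6.85, 6.69, 7.66 and 4.67 CPM in HF.KO, 0.325 to 6.41 CPM in HF.WT, 0.165 to 2.99 CPM in HFC.KO and 0, 0.171, 0 and 0 CPM in HFC.WT libraries (adjusted p = 0.00838). No fold is given for Plin5 and G0s2, since the HFC.WT libraries held almost no counts of either. Pnpla2, the gene of ATGL, fell to 85.2 to 98.6 CPM in HF.KO, against 109.9 to 136 CPM in HFC.WT libraries (-0.40 ± 0.08, adjusted p = 0.00773; by limma adjusted p = 0.0901). Among 14 genes of retinoid handling and omega-hydroxylation 4 rose and 1, Cyp4f14, fell, a call lost in 5 of the 16 fits that leave out a library, with an adjusted p of up to 0.0846. Besides Retsat and Cyp4a10 the risers included Aldh1a1, which makes retinoic acid, with 23.4, 21.5, 17.8 and 17.6 CPM in HF.KO, 7.16 to 18.6 CPM in HF.WT, 5.12 to 12.9 CPM in HFC.KO and 3.53, 4.44, 4.305 and 5.22 CPM in HFC.WT libraries (2.20 ± 0.34, adjusted p = 0.00102).

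Among the 11 genes called for diet alone, 8 of them on the list of PPAR targets, was Slc27a4. This gene of a fatty acid transport protein with acyl-CoA synthetase activity held 54.6, 46.8, 56.3 and 55.8 CPM in HF.KO, 42.4, 39.5, 51.2 and 59.2 CPM in HF.WT, 48.1, 37.8, 31.2 and 35.98 CPM in HFC.KO and 24.03, 24.9, 31.98 and 27.6 CPM in HFC.WT libraries. HF.KO overlapped HF.WT and HFC.KO and not HFC.WT, the combined log2 fold change was 0.99 ± 0.15 (adjusted p = 0.000502), diet alone gave 0.83 ± 0.15 (adjusted p = 0.0327) and the Cpt1a step 0.15 ± 0.14 (adjusted p = 0.749). The diet-alone call was lost without HFC.WT library a or c, where 0 genes passed that comparison. The Paneth cell markers were summed in CPM of the library total without TMM scaling. The sums were 14981 to 26989 CPM in HF.KO and 15112 to 26050.0 CPM in HF.WT libraries. They were 4169 to 13909 CPM in HFC.KO and 6719.6 to 16601 CPM in HFC.WT libraries. The ranges on the high-fat diet thus overlapped that of HFC.WT and not that of HFC.KO. None of the 22 tested Paneth markers passed by edgeR (median combined log2 fold change 1.16, 12 higher at an unadjusted p under 0.05, 4 called by DESeq2 and 0 by limma), and their part in the results was not tested. In a sorted bulk sample, more cells of a type and more RNA per cell cannot be told apart.

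**Figure D5:**
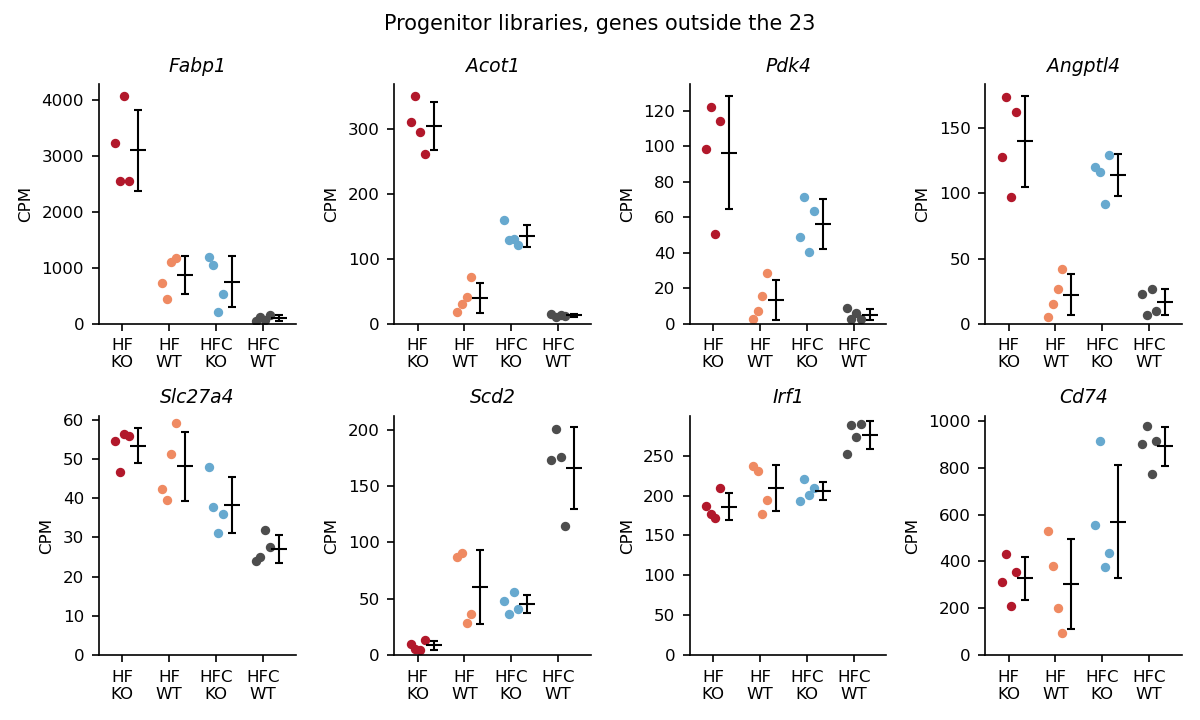
CPM of 8 genes that did not pass the joint test of both steps, drawn as for the genes that did (points, libraries a to d; bars, mean and SD, n = 4; y axes from 0). Fabp1 was highest in HF.KO, Acot1, Pdk4 and Angptl4 were high in HF.KO and HFC.KO, Slc27a4 was high in HF.KO and HF.WT, Scd2 and Irf1 were lowest on average in HF.KO, and Cd74 averaged 327 CPM in HF.KO and 302 CPM in HF.WT against 892 CPM in HFC.WT.

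Among genes of fat synthesis the desaturase Scd2 fell, while other members rose. Scd2, a stearoyl-CoA desaturase (GRCm38 chromosome 19, 44293674 to 44306864, plus strand), held 9.97, 5.54, 4.86 and 13.6 CPM in HF.KO, 87.01, 90.97, 28.1 and 36.01 CPM in HF.WT, 47.8, 36.5, 55.8 and 41.2 CPM in HFC.KO and 173, 200.3, 176 and 114 CPM in HFC.WT libraries. All HF.KO libraries were below the other 12 and all HFC.WT libraries above them, and in HF.WT libraries a and b were above c and d. HF.KO had 19.7-fold less than HFC.WT (-4.30 ± 0.44, adjusted p = 8.08e-05), both steps passed singly (adjusted p = 0.0406 for diet and 0.00731 for Cpt1a), and the joint test narrowly did not (adjusted p = 0.0508). Of 18 genes of fatty acid synthesis 3 rose (Acacb, Me1 and Gpam) and 3 fell (Scd2, the elongase gene Elovl5 and the pyruvate carboxylase gene Pcx), with a median of -0.17. Of 25 sterol genes 2 fell and none rose by edgeR (4 fell by DESeq2 and 2 by limma), with a list median of -0.32. By edgeR 12 were lower and 0 higher at an unadjusted p under 0.05, and 24 of the 25 estimates were negative. The list median was -0.39 for loss alone and -0.05 for diet alone, and neither comparison called a member. The calls of Gpam, Elovl5 and Pcx were lost in 4, 5 and 11 of the 16 fits that leave out a library, with an adjusted p of up to 0.087, 0.0736 and 0.152.

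Glucose-handling genes changed in both directions. Of 31 genes of glycolysis and pyruvate entry 4 fell and 2 rose by edgeR (median -0.19), 6 fell by DESeq2 and 1 by limma, and 13 were lower and 2 higher at an unadjusted p under 0.05. Besides Hk2 and Slc2a1, Gpi1 and Pkm fell, calls lost in 5 and 7 of the 16 fits that leave out a library (adjusted p of up to 0.104 and 0.0964). Hk2, the hexokinase, held 23.7 to 27.2 CPM in HF.KO and 34.8 to 52.9 CPM in HFC.WT libraries (-0.70 ± 0.14, adjusted p = 0.00636; by limma adjusted p = 0.146). Slc2a1, the glucose transporter GLUT1, had a log2 fold change of -0.58 ± 0.13 (adjusted p = 0.0209), a call lost without HFC.WT library a or d or HF.KO library b (adjusted p = 0.0515, 0.077 and 0.0902), and its HF.KO libraries overlapped those of HFC.KO. Pfkl, the liver-type phosphofructokinase, was higher at 204 to 265 CPM in HF.KO against 134 to 164 CPM in HFC.WT libraries (0.69 ± 0.10, adjusted p = 0.000406), and Pdk4 was the other gene that rose.

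Genes of MHC class I presentation fell in HF.KO progenitors, and for those named no single step passed. Of 21 tested genes of MHC class I presentation and interferon response 6 fell and none rose (median -0.44; DESeq2 and limma each called 8 lower and 0 higher, and edgeR had 12 lower and 0 higher at an unadjusted p under 0.05). Irf1, a transcription factor of the interferon response, held 187, 177, 172 and 209 CPM in HF.KO, 237, 231, 176 and 194 CPM in HF.WT, 193, 220.1, 201 and 209 CPM in HFC.KO and 252, 288, 274 and 290.3 CPM in HFC.WT libraries. Every other group was below HFC.WT, and HF.KO overlapped both single-change groups (-0.57 ± 0.09, adjusted p = 0.00154; adjusted p = 0.647 for the diet step and 0.546 for the Cpt1a step). The class I heavy chain gene H2-K1 (-0.41 ± 0.07, adjusted p = 0.00316) and Tapbp, which loads peptides onto class I (-0.43 ± 0.09, adjusted p = 0.00921), fell too. H2-D1, Tap2 and Psmb10 completed the 6, and their calls were lost in 7, 5 and 8 of the 16 fits that leave out a library, with an adjusted p of up to 0.127, 0.102 and 0.16. Of 14 genes of epithelial defence (median -1.13) 1 fell by edgeR, 4 by DESeq2 and 1 by limma, and none rose. By edgeR 6 were lower and 0 higher at an unadjusted p under 0.05. The edgeR call was Nfkbiz, an NF-kappa-B cofactor, with 33.7 ± 9.68 CPM in HF.KO and 82.6 ± 18.4 CPM in HFC.WT (SD, n = 4 each; -1.30 ± 0.22, adjusted p = 0.00346). Cebpd, an acute-phase transcription factor gene, fell as well (-1.36 ± 0.23, adjusted p = 0.00237).

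MHC class II genes had the lowest list median, -1.38 over 7 tested members, but none passed by edgeR or limma. DESeq2 called 2 lower, and 6 were lower at an unadjusted p under 0.05. Cd74, the class II invariant chain, held 314, 430.0, 209.7 and 357 CPM in HF.KO, 528, 383, 203 and 95.4 CPM in HF.WT, 554, 916, 375 and 437 CPM in HFC.KO and 902, 978, 776 and 913 CPM in HFC.WT libraries. HF.KO did not overlap HFC.WT and did overlap both single-change groups (-1.45 ± 0.44, adjusted p = 0.121). The white blood cell markers were summed in CPM of the library total without TMM scaling. The sums were 11.6 to 23.4 CPM in HF.KO and 20.1 to 21.3 CPM in HF.WT libraries. They were 18.7 to 23.9 CPM in HFC.KO and 19.6 to 36.6 CPM in HFC.WT libraries. Of 18 markers 2 passed the filter, and Ptprc was at 0 in 15 of the 16 libraries.

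Identity and growth genes gave few or no calls in the combined comparison. None of 23 tested stem cell markers passed by any of the 3 tools (median 0.18, 1 lower at an unadjusted p under 0.05), nor did any of 30 proliferation genes (median -0.07, 0 at an unadjusted p under 0.05) or of 22 goblet cell markers (median -0.08, 2 higher and 1 lower at an unadjusted p under 0.05). The 25 enteroendocrine genes had a median of 0.58, with 22 of 25 above 0, 8 higher and 0 lower at an unadjusted p under 0.05, and 3 called higher by DESeq2 and 2 by limma. By edgeR 1 of them rose, Neurog3, the fate regulator of that lineage, at 17.6 to 25.4 CPM in HF.KO against 8.87 to 11.8 CPM in HFC.WT libraries (0.94 ± 0.21, adjusted p = 0.0206). That call was lost without HFC.WT library a or b or HF.KO library a or c (adjusted p = 0.0515, 0.0664, 0.0509 and 0.0721). Of 25 enterocyte markers Fabp2 rose and Slc5a1, the sodium-glucose transporter, fell (-1.06 ± 0.24, adjusted p = 0.0314, lost in 7 of the 16 fits that leave out a library, with an adjusted p of up to 0.105). Fabp6, the ileal bile acid binding protein, fell to 0.187 to 0.893 CPM in HF.KO, against 2.35 to 8.92 CPM in HFC.WT libraries (-3.12 ± 0.60, adjusted p = 0.00664), with a diet step of -2.95 ± 0.59 that passed (adjusted p = 0.0418). Sesn1, a p53 target that restrains mTORC1, fell to 48.9 to 64.7 CPM in HF.KO, against 99.8 to 125 CPM in HFC.WT libraries (-1.02 ± 0.11, adjusted p = 1.06e-05), with a Cpt1a step of -0.83 ± 0.11 (adjusted p = 0.000333).

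Xist exceeded Ddx3y in libraries a and b of all 4 progenitor groups and in none of libraries c and d, so the 23 genes were also looked at within each pair of libraries. Since all HF.KO libraries lie outside the others for these genes, the direction within a pair is fixed and only the sizes are of interest. Among the 22 higher genes the diet step, as the log2 ratio of mean CPM, ran from 0.38 to 2.63 in libraries a and b and from 0.68 to 4.07 in c and d. The Cpt1a step ran from 0.81 to 3.51 in a and b and from 0.55 to 2.09 in c and d. Hadhb had a diet step of 0.64 and a Cpt1a step of 1.34 in a and b, and 0.72 and 0.86 in c and d.

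The same comparison in stem cells, HF.KO minus HFC.WT, was set against that in progenitors in a fit of all 32 libraries. That fit took the libraries as independent, although stem cells and progenitors may have come from the same animals, which the labels do not say. Of the 23 genes, 22 also passed in stem cells in the same direction, where 321 of 13088 genes were called (2.45%), 166 higher (1.27%) and 155 lower (1.18%). Acaa1b rose by 5.24 ± 0.56 in stem cells and Hadhb by 1.63 ± 0.11, and Oxct1 fell by 0.87 on the log2 scale. The exception was Ncald, at 0.34 ± 0.12 in stem cells (adjusted p = 0.125) and 1.06 ± 0.12 in progenitors. No gene of 13088 passed the test of the difference between the cell types by edgeR (788 at an unadjusted p under 0.05, smallest adjusted p = 0.0736, for Anxa13), whereas DESeq2 called 4 and limma 2. Cyp4a10 was among both sets, with 2.79 ± 0.53 in stem cells and 6.50 ± 0.57 in progenitors by edgeR, a difference of -3.71 ± 0.88 (adjusted p = 0.481 by edgeR, 0.00241 by DESeq2 and 0.0219 by limma). Anxa13, an intestinal annexin, was also among both sets (adjusted p = 0.000388 by DESeq2 and 0.0247 by limma). It differed the other way, with 1.79 ± 0.21 in stem cells and 0.30 ± 0.17 in progenitors.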

How the data were processed

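RNA-seq libraries were made from sorted intestinal cells of 4 groups of mice, with 4 libraries per group and cell type. Per the submitters' processing notes, STAR 2.5.3a, RSEM 1.3.0, SAMtools 1.3 and the mm10 build were used. The authors deposited RSEM estimated counts (expected counts) per gene and log2 TPM values with 1 added; the annotation and strand setting are not given in the sources used here. Expected counts were rounded to whole numbers. edgeR 4.0.16 (R 4.3.3) with TMM scaling and filterByExpr (minimum count 10) fitted the 16 progenitor libraries with a robust quasi-likelihood model of 4 groups, and p-values were adjusted over all 12460 tested genes by Benjamini-Hochberg at 0.05. Genes beyond either factor took the larger p of the diet and Cpt1a steps, set to 1 where their signs differed. Stem cells were compared in a fit of all 32 libraries (13088 genes). Alternatives were DESeq2 1.42.0, RLE scaling, no filter, other sets of libraries, limma 3.58.1 on the deposited log2 values, an Xist covariate, and leaving out each library in turn.

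Members and gene lists were chosen with earlier results of these data known. Genes named were, for the combined effect, the 15 largest changes per direction with adjusted p under 0.05, a mean log2 CPM of at least 3 and no overlap between groups. Up to 20 genes beyond either factor with a mean log2 CPM of at least 3 and, per list, up to 4 members with the smallest p were added. Cpt2, Etfa, Etfb, Etfdh, Echs1, Crot, Elovl5, Pcx, H2-D1, Psmb10, Pkm, Gpi1, Acot9, Cyp4f14, Prex1, Zfp667, Adprhl1 and Gm26588 were named after their values were seen, to complete counts. Plin5 and Acaa1a were also named outside these rules. Some genes in the lists are not reported here by name, though they stand in the counts. Genes without a symbol held 0.0621% of progenitor counts. Totals were 3307711 to 7337425 estimated counts per progenitor library, and replicates correlated at 0.96 to 0.976 (Pearson, log2 CPM, across genes). Gene positions and promoter windows come from the GENCODE M21 and RefSeq GRCm38.p6 annotations. Figures were drawn with matplotlib 3.10.9.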

Additional observations from a re-analysis of the deposited data

Results flagged for a closer look

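A library stood apart from the other 3 of its group, by a gap to the nearest of them past Dixon's 95% limit for its share of the range, in 16 of 336 groups looked at (84 genes, 4 groups each). Chance flags about 5% of such groups, or 16.8 here. None of these gaps was weighed further.

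In HF.KO progenitors, Cpt1a was 20.9 CPM in library c and 26.0 to 26.7 CPM in the others. Library d held 702 CPM of Acadvl against 781 to 794 CPM in the others, and 37.3 CPM of Mgll against 48.9 to 50.002 CPM. Library b held 20.5 CPM of Slc2a1 against 26.5 to 26.8 CPM. Library a held 14.4 CPM of Gsdmc4 against 5.71 to 6.92 CPM, and 3.57 CPM of Plin5 against 1.79 to 1.87 CPM.

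In HF.WT progenitors, library d held 7.07 CPM of Zfp667 against 4.23 to 4.59 CPM in the others, and 39.1 CPM of Apoc2 against 12.2 to 16.1 CPM. In HFC.KO progenitors, library b held 8.46 CPM of Slc22a3 against 4.60 to 4.95 CPM, 415 CPM of Tm4sf4 against 183 to 201 CPM and 568 CPM of H2-K1 against 473 to 486 CPM, and library c held 397 CPM of Etfa against 483 to 485 CPM.

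In HFC.WT progenitors, library d held 332.7 CPM of Acadvl against 295 to 301 CPM in the others, and 147 CPM of Retsat against 121 to 125 CPM. Library c held 25.5 CPM of Acot8 against 32.1 to 33.3 CPM. Library b held 0.171 CPM of G0s2, which was at 0 in the others.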

How the results depend on the processing

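Among the 84 genes followed, no combined log2 fold change changed sign under any alternative run. The same held for the smaller step of the 23 genes beyond either factor. Other results were not followed for direction. In the combined comparison 166 genes were higher and 128 lower in the main fit, against 140 and 141 by limma. Of the 81 called genes followed through the alternatives, 57 kept their call under every one and 59 in all 16 fits that leave out a progenitor library. With DESeq2 the counts were 508 for the combined comparison (247 higher and 261 lower, 290 of the 294 shared), 47 for diet alone, 83 for loss alone, 118 for the diet step, 190 for the Cpt1a step, 54 beyond either factor and 4 for stem cells against progenitors, which limma put at 2. Without a filter on low counts, diet alone gave 18 and the diet step 67. Diet alone also gave 4 with only its 8 libraries, 22 with all 32, 7 with Xist as a covariate and 0 with the position of the column in its group as a term, an alternative chosen after seeing the data. The cause of these shifts was not tested. Leaving out each library in turn gave 198 to 353 genes for the combined comparison (fewest without HF.KO library b), 0 to 20 for diet alone (0 without HFC.WT library a or c), 17 to 49 for loss alone, 16 to 84 for the diet step (fewest without HFC.KO library d, most without HFC.KO library c), 35 to 107 for the Cpt1a step (fewest without HF.KO library b), 5 to 29 beyond either factor, 0 to 1 for the interaction and 0 to 1 for stem cells against progenitors. No paired analysis was possible because the columns carry no replicate number. Columns at the same position in their groups correlated in their deviations (median 0.141, lowest -0.0685, against -0.0492 for other pairs), which the labels do not tie to a replicate. With that position as a term the combined comparison gave 398 and 26 genes passed beyond either factor, 19 of the 23 among them; Eci2, Cyp4a10, Gm26588 and Zfp667 did not pass (adjusted p = 0.0607, 0.09, 0.0698 and 0.0607). Plin5 had no adjusted p under DESeq2. With 4 libraries per group and 3307711 to 7337425 counts each, genes at a few CPM rest on few reads, and the interaction has the widest errors of the contrasts.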

Other observations

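Some large changes of the combined comparison lay outside the lipid and antigen presentation lists. Gsdmc2, a gasdermin gene of the intestinal epithelium, held 7.29, 2.45, 2.99 and 3.65 CPM in HF.KO, 12.1 to 27.01 CPM in HF.WT, 9.53 to 18.2 CPM in HFC.KO and 46.4, 9.21, 15.99 and 15.9 CPM in HFC.WT libraries (-2.40 ± 0.51, SE, edgeR adjusted p = 0.0215). Its neighbour in the same family, Gsdmc4, fell by a similar amount (-2.12 ± 0.45, adjusted p = 0.0214), and reads may be divided between such close relatives. Both calls were lost without HF.KO library b, c or d, with an adjusted p of up to 0.0861 and 0.0845. HF.KO did not overlap HFC.WT for either gene, which the rule that picked them required and which held for 9.37% of all tested genes.

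Tgfbi, a secreted matrix protein gene, held 17.6, 13.5, 16.1 and 12.8 CPM in HF.KO, 14.4 to 39.4 CPM in HF.WT, 21.1 to 42.5 CPM in HFC.KO and 53.8, 41.6, 39.7 and 35.03 CPM in HFC.WT libraries (-1.50 ± 0.27, adjusted p = 0.00569), a call kept in all alternatives run. Slc28a2, a nucleoside transporter gene, fell to 1.63 to 8.52 CPM in HF.KO, against 13.8 to 26.2 CPM in HFC.WT libraries (-2.26 ± 0.49, adjusted p = 0.0243), a call lost in 5 of the 16 fits that leave out a library, with an adjusted p of up to 0.0845. Mt2, a metallothionein gene, rose to 15.1 to 45.8 CPM in HF.KO, against 1.84 to 8.704 CPM in HFC.WT libraries (2.70 ± 0.57, adjusted p = 0.0215), a call lost in 5 of the 16 fits that leave out a library, with an adjusted p of up to 0.0698. Tm4sf4, a tetraspan membrane protein gene, held 617, 640.3, 796 and 590.3 CPM in HF.KO, 196 to 371 CPM in HF.WT, 183 to 415 CPM in HFC.KO and 111, 170.3, 175 and 143 CPM in HFC.WT libraries (2.14 ± 0.28, adjusted p = 0.000558), and its diet step passed too (1.42 ± 0.27, adjusted p = 0.0461).

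Lamb3, a laminin chain gene, rose in the combined comparison of progenitors, with 48.96, 57.4, 47.9 and 45.8 CPM in HF.KO, 15.6 to 22.5 CPM in HF.WT, 20.6 to 39.8 CPM in HFC.KO and 16.6, 21.5, 15.99 and 9.79 CPM in HFC.WT libraries (1.63 ± 0.22, adjusted p = 0.000308). In the fit of all 32 libraries its combined log2 fold change was 1.63 ± 0.22 in progenitors and 0.29 ± 0.20 in stem cells, a difference that DESeq2 called (adjusted p = 0.0172) and edgeR did not (adjusted p = 0.481).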
